A study of Rattus norvegicus with 36 samples.

Results

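The genes described here are 27 genes of cholesterol synthesis and of its control by SREBP2, read from 36 RNA sequencing libraries of rat alveolar macrophages. They were taken by symbol from a table of 23487 genes. All 27 were present, and all 27 were among the 14606 genes that passed the filter on low counts. The cells were primary alveolar macrophages of male F344 rats, an inbred strain; the sources used here do not give their age. They spent 5 days in culture, in DMEM medium that held 10% fetal bovine serum, and the exposure lasted 4 days. The particles were Printex90, which is carbon black, and G1-1, G3-1 and Bayertitan, which are all titanium dioxide. For each particle there were 3 libraries of control cultures set aside for it, 3 of non-overload and 3 of overload cultures, which gives 12 groups. The amounts of particle behind these names are not in the sources used here. The series asks how these cells respond to particle overload. The labels call the libraries biological replicates without saying whether they came from separate animals, so the spread behind each p-value may be a technical one.

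Cholesterol is built from acetyl-CoA in a long chain of reactions. The early steps pass through mevalonate to the isoprenoid diphosphates, which also feed the prenylation of proteins. The late steps start with squalene, close the sterol rings at lanosterol and trim lanosterol to cholesterol. The transcription factor SREBP2, the product of Srebf2, turns on most of these genes when membranes of the endoplasmic reticulum are poor in sterol. Scap then carries it to the Golgi, where the proteases Mbtps1 and Mbtps2 cut it free, and Insig1 and Insig2 hold Scap back when sterol is plentiful. Alveolar macrophages take in surfactant and the debris of other cells, both rich in lipid, and so handle much cholesterol from outside. The 27 genes were read as 8 early enzymes, 11 late enzymes, 6 regulators, and the sterol-responsive carriers Stard4 and Tmem97.

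SREBP2 binds sterol regulatory elements in promoters, often beside boxes for the factors NF-Y and Sp1. Promoters were matched for 23 of the 27 genes in RefSeq's annotation of the GRCr8 build, each from 250 bases before the start to 50 after it. The 5 sequences below belong to genes whose levels the results turn on, and their capitals mark the NF-Y box CCAAT, or ATTGG where it lies on the opposite strand. They come from chr8:51538228-51538527 on the minus strand for Sc5d, chr16:29746863-29747162 on the plus strand for Msmo1, chr17:66547475-66547774 on the minus strand for Idi1, chr2:176804767-176805066 on the minus strand for Fdps and chr4:8057720-8058019 on the minus strand for Insig1.
Sc5d: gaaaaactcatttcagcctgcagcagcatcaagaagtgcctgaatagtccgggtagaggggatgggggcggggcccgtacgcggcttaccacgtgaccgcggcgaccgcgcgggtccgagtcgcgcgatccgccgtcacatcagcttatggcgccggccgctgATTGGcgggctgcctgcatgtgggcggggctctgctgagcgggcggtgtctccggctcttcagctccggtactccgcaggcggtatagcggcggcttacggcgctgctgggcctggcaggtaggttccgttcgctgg
Msmo1: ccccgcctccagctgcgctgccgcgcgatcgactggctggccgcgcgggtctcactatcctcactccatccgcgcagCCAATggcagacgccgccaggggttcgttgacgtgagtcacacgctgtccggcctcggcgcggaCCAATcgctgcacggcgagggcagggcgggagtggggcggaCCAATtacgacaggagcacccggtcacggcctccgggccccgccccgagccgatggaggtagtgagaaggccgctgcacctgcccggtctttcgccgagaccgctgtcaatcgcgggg
Idi1: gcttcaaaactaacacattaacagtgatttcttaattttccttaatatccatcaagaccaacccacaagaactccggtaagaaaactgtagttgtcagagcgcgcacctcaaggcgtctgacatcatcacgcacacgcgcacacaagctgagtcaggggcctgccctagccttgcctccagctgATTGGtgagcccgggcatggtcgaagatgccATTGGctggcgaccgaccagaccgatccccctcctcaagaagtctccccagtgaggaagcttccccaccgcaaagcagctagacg
Fdps: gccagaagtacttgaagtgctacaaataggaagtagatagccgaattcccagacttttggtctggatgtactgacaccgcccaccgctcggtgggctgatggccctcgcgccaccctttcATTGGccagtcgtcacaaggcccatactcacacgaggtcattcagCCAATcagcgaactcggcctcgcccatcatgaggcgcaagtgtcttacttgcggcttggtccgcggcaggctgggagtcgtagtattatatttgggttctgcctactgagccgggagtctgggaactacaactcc
Insig1: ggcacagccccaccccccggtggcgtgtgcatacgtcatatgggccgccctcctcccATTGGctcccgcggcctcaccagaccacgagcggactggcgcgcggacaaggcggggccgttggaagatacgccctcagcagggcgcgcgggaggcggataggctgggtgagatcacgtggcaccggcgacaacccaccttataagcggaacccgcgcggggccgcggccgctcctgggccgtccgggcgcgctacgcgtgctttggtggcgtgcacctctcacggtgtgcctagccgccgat
The box CCAAT was present on either strand in 17 of the 23 promoters, or 73.9%, and in 37.7% of 27457 promoters, a single promoter for each gene symbol. The GC box GGGCGG, to which Sp1 binds, was present in 18 of 23, or 78.3%, and in 34.9% of all promoters. A sterol regulatory element written TCACNCCAC had no match in the 23 promoters and a match in 1.13% of all promoters. Its shorter form TCACNCC, which lies inside the longer form, was found in 5 of 23, or 21.7%, and in 14.7% of all. These are matches of letters within these windows and were not tested. Other promoters of the same gene were left out. The set of all promoters was not limited to genes that passed the filter on low counts here, as the members were. The shares thus compare unlike sets.

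Library totals were 26.1 to 43.2 M counts, and the counts of single members ran from 158 to 7158, and for the members with the lowest counts, such as Mvk and Hsd17b7, counting error was not small beside the spread between libraries. Together the members took 0.1113% to 0.1285% of a library's counts. Of 10 macrophage markers 9 were in the table, and their summed level was 3840 to 5510 CPM, the count scaled to the size of its library. Marco, a scavenger receptor usually strong in alveolar macrophages, was at no more than 1.09 CPM in the 36 libraries. The 7 epithelial markers summed to 1160 to 2330 CPM, with Krt7 at 485 to 1060 CPM, and the 5 fibroblast markers in the table to 16.1 to 414 CPM. Markers of lymphocytes summed to at most 7.35 CPM and those of neutrophils to at most 12.3 CPM, and 6 proliferation genes to 280 to 472 CPM. In 8 libraries the collagen gene Col3a1 stood above 10 CPM. They were Printex90 control replicate 2, G1-1 overload replicate 2, control replicates 1 and 2 and overload replicates 1 and 2 of G3-1, and the non-overload libraries Printex90 replicate 2 and Bayertitan replicate 1. In these bulk samples, fewer cells of a type and less RNA per cell cannot be told apart.

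In control cultures no member was called as differing with the particle the controls belonged to, in a test that called few genes at all. None of the 27 was called among the 4 control groups with edgeR at an adjusted p under 0.05, against 0.0342% of all genes tested. The lack of a call does not show that levels were equal. Fdps, the farnesyl diphosphate synthase, was the 1 member at an unadjusted p under 0.05 there, with control means of 68.7, 70.8, 74.9 and 75.3 CPM and an edgeR adjusted p of 0.435. DESeq2 was not run on this comparison of 4 groups. How many of all genes were at an unadjusted p under 0.05 there is not given here.

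Printex90 overload raised 11 of the 27 members and lowered 1. That is 40.7% of them called higher beside 7.45% of all genes tested, and 3.7% called lower beside 7.31%. The genes called higher were 3 of 8 early enzymes, 6 of 11 late enzymes and 2 of 6 regulators. The early enzymes called were Hmgcs1, Idi1 and Fdps, and the call of Hmgcs1 was lost in several other fits. The other early enzymes, Acat2, Mvk, Pmvk, Mvd and Ggps1, had log2 fold changes of 0.20, 0.03, 0.003, 0.20 and -0.10. The median log2 fold change was 0.19 for early enzymes, 0.26 for late enzymes and 0.13 for regulators, while that of all genes tested was -0.01. With raw library sizes in place of TMM, 8 members were higher and 2 lower, and of all genes 698 were higher and 1968 lower instead of 1088 and 1067.

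Sc5d, a sterol desaturase near the end of the pathway, moved most in Printex90 overload. It stood at 55.6, 54.8 and 61.4 CPM in the control libraries and at 84.6, 78.5 and 82.4 CPM in the overload libraries. Every overload library was well above every control library, with a log2 fold change of 0.52 ± 0.05 (SE, n = 3 against 3) and an edgeR adjusted p of 6.92e-08. Sqle, the squalene epoxidase, stood at 43.9, 41.9 and 52.2 CPM in controls and at 63.9, 61.0 and 58.2 CPM in overload. Msmo1, a methylsterol oxidase, stood at 50.1, 49.5 and 57.1 CPM in controls and at 69.6, 65.4 and 69.2 CPM in overload. For both genes the groups were apart, with log2 fold changes of 0.41 ± 0.07 and 0.38 ± 0.07. Cyp51, the lanosterol demethylase, went from 89.2, 87.3 and 102 CPM to 117, 113 and 121 CPM, a log2 fold change of 0.33 ± 0.07 (edgeR adjusted p = 0.00114). Lss, which closes the sterol rings, went from 57.0, 54.7 and 66.0 CPM to 71.6, 73.3 and 67.5 CPM. Its groups lay close, 66.0 against 67.5 CPM at the nearest, and its log2 fold change of 0.26 ± 0.06 (adjusted p = 0.00593) lost the call without control replicate 2, without the libraries with Col3a1 above 10 CPM, or when only the libraries of the particle compared were fitted. Dhcr7, the reductase that finishes cholesterol, went from 14.2, 14.4 and 14.2 CPM to 16.9, 17.5 and 17.2 CPM. Its log2 fold change was 0.27 ± 0.08, with tight replicates, and the call was lost without control replicate 1 or overload replicate 2, with raw library sizes, and when only this particle's libraries were fitted (adjusted p up to 0.061).

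Among the early enzymes in Printex90 cultures, Idi1, which isomerises the isopentenyl unit, stood at 19.6, 17.6 and 23.6 CPM in controls and at 31.2, 26.8 and 26.2 CPM in overload. The groups did not overlap, and the log2 fold change was 0.47 ± 0.12 (edgeR adjusted p = 0.00762). It was called in 4 of 6 fits with a library left out, the exceptions being control replicate 2 and overload replicate 1 (adjusted p up to 0.0707). Fdps, which joins these units to farnesyl diphosphate, went from 73.9, 76.7 and 74.2 CPM to 85.1, 84.1 and 87.6 CPM. All 3 overload libraries were higher, by a log2 fold change of 0.19 ± 0.05 (adjusted p = 0.00629), or 0.12 with raw library sizes, where it was still called. Hmgcs1, which makes the HMG-CoA that mevalonate comes from, went from 30.9, 35.5 and 34.7 CPM to 42.5, 39.3 and 40.0 CPM, a log2 fold change of 0.27 ± 0.09 (adjusted p = 0.0319). That call was lost without control replicate 1, overload replicate 1 or overload replicate 3, with raw library sizes, with the level of epithelial markers as a covariate, and when only this particle's libraries were fitted (adjusted p up to 0.162). Mvd, the mevalonate diphosphate decarboxylase, stood at 16.6, 15.8 and 16.6 CPM in controls and at 18.6, 18.1 and 19.8 CPM in overload and did not pass the test (log2 fold change 0.20 ± 0.07, adjusted p = 0.063). Pmvk, the phosphomevalonate kinase, was at 13.0 ± 1.74 CPM (SD, n = 3) in controls and 13.0 ± 1.15 CPM in overload.

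Of the regulators, Insig1, itself a classic SREBP2 target, rose in Printex90 overload. It stood at 86.3, 82.8 and 93.3 CPM in controls and at 118, 113 and 109 CPM in overload, with no overlap and a log2 fold change of 0.37 ± 0.07 (edgeR adjusted p = 0.000424). Insig2, the less sterol-responsive relative, went from 10.0, 10.4 and 9.63 CPM to 12.3, 12.6 and 12.3 CPM. Its log2 fold change was 0.31 ± 0.10 (adjusted p = 0.037), and leaving out any of the 6 libraries ended the call, as did raw library sizes and either marker covariate (adjusted p up to 0.0937). Mbtps1, the protease that makes the opening cut in SREBP2, was the member that fell. It stood at 91.5, 91.7 and 87.1 CPM in controls and at 73.8, 78.4 and 81.8 CPM in overload, a log2 fold change of -0.21 ± 0.05 (adjusted p = 0.00367). Srebf2 was at 163 ± 9.3 CPM in controls and 165 ± 4.1 CPM in overload, and Scap at 71.6 ± 0.814 and 69.6 ± 0.967 CPM; neither passed the test.

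**Figure D1:**
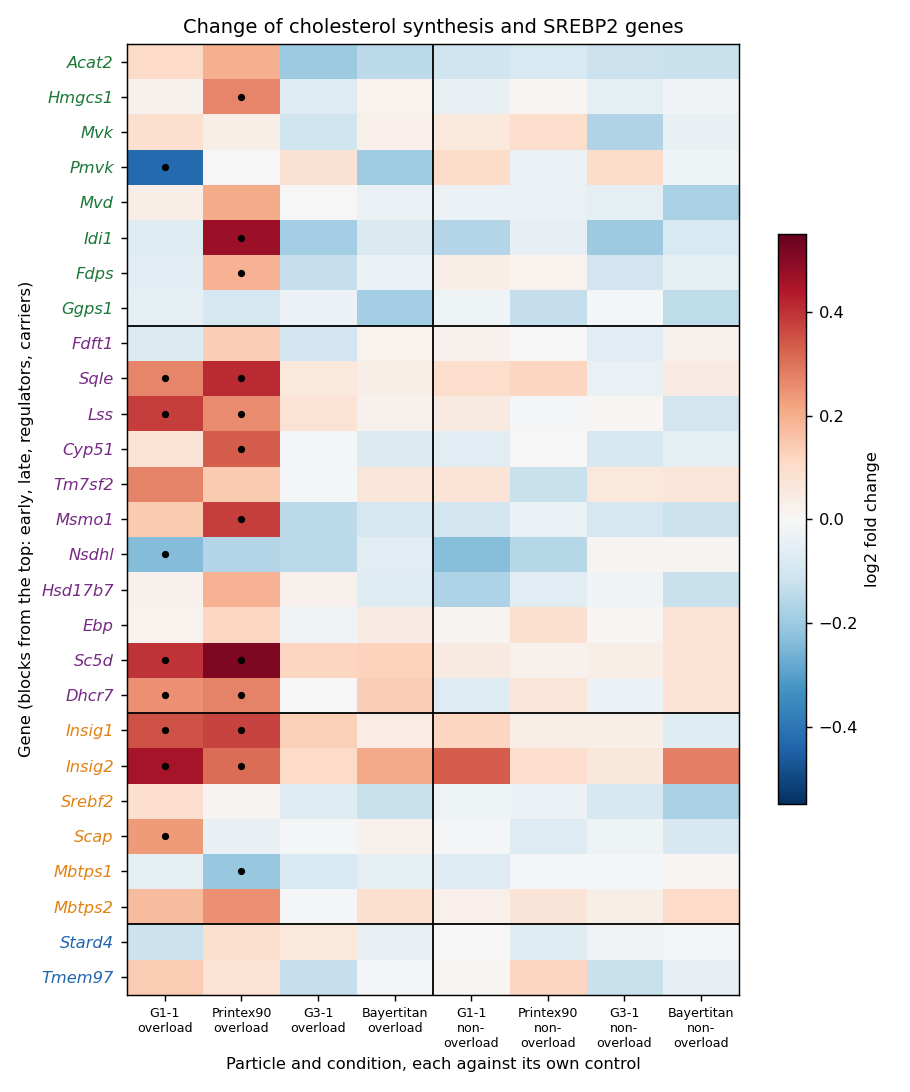
Heat map of the log2 fold change of each of the 27 genes (rows, in blocks of early enzymes, late enzymes, regulators and carriers) in overload and non-overload cultures of each particle against that particle's own control (columns). Colour gives the log2 fold change and a dot marks an edgeR adjusted p under 0.05; dots stand in the G1-1 and Printex90 overload columns, 9 and 12 of them, and in no other column.

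G1-1 overload raised 7 members and lowered 2. These are 25.9% called higher beside 13.7% of all genes, and 7.41% called lower beside 14.4%, in the comparison with the most genes called among the 4 of overload against control. None of the 8 early enzymes rose and 1 fell, while 4 of 11 late enzymes and 3 of 6 regulators rose and 1 late enzyme fell. The median log2 fold change was -0.01 for early enzymes, 0.14 for late enzymes and 0.20 for regulators, beside -0.02 for all genes tested. With raw library sizes 6 members were higher and 3 lower, and of all genes 1387 were higher and 2832 lower instead of 1997 and 2108. The count of members lower was 1 without control replicate 2 or overload replicate 3, with the share of all genes in those fits not given here.

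Sc5d again stood apart in G1-1 cultures, at 54.7, 55.7 and 54.2 CPM in controls and 70.5, 68.6 and 77.6 CPM in overload. Its log2 fold change was 0.40 ± 0.05 (edgeR adjusted p = 1.29e-06). Lss went from 59.1, 56.6 and 55.8 CPM to 70.4, 69.2 and 83.6 CPM, a log2 fold change of 0.38 ± 0.06 (adjusted p = 2.87e-05). Both genes were higher in each overload library, and overload replicate 3 was the highest. Sqle went from 42.9, 42.5 and 41.2 CPM to 53.2, 46.2 and 53.0 CPM, a log2 fold change of 0.27 ± 0.07 (adjusted p = 0.00462). Dhcr7 stood at 14.5, 14.9 and 14.6 CPM in controls and at 19.2, 14.8 and 18.5 CPM in overload, so that the groups overlapped through overload replicate 2. Its log2 fold change of 0.25 ± 0.08 (adjusted p = 0.0144) lost the call without overload replicate 1 or 3, with raw library sizes, and when only this particle's libraries were fitted (adjusted p up to 0.106). Nsdhl, which works with Msmo1 in removing methyl groups from the sterol ring, fell from 37.4, 42.7 and 36.2 CPM to 33.9, 33.8 and 30.8 CPM. The log2 fold change was -0.24 ± 0.06 (adjusted p = 0.004), and the call was lost without control replicate 2 or overload replicate 3 (adjusted p up to 0.0552). Msmo1 and Cyp51, which rose in Printex90 overload, were at 55.6 ± 4.5 and 93.5 ± 7.98 CPM in G1-1 overload and at 50.4 ± 1.54 and 88.9 ± 3.92 CPM in its controls, with no call.

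The early enzyme that fell in G1-1 overload was Pmvk, from 11.7, 12.4 and 12.9 CPM to 8.68, 9.92 and 8.85 CPM. All 3 overload libraries lay below the lowest value of Pmvk in the other 33 libraries, 10.7 CPM, and the log2 fold change was -0.43 ± 0.09 (edgeR adjusted p = 0.000806). The other 7 early enzymes had log2 fold changes between -0.07 and 0.11 with no call. Hmgcs1 was at 34.0, 33.7 and 31.1 CPM in controls and 34.2, 31.5 and 34.8 CPM in overload, fully overlapping. Mvd was at 15.2 ± 0.74 and 15.6 ± 0.317 CPM. Ggps1, which makes geranylgeranyl diphosphate from farnesyl diphosphate, was at 55.2 ± 2.95 CPM in controls and 53.3 ± 1.8 CPM in overload.

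In G1-1 overload the regulators had the highest median of the role groups. Insig2 had the largest log2 fold change of the 27 members there, from 9.44, 9.96 and 10.3 CPM to 13.1, 12 and 15.6 CPM, or 0.45 ± 0.10 (edgeR adjusted p = 0.000825). Insig1 went from 90.1, 81.6 and 82.9 CPM to 101, 98.3 and 126 CPM, a log2 fold change of 0.35 ± 0.07 (adjusted p = 0.000226). Scap, the escort of SREBP2, went from 74.3, 72.1 and 71.1 CPM to 83.2, 85.2 and 87.6 CPM, a log2 fold change of 0.24 ± 0.04 (adjusted p = 0.000143). In all 3 genes each overload library was above each control library. Mbtps1, lower in Printex90 overload, was at 92.4, 93.4 and 91.6 CPM in G1-1 controls and at 81.8, 97.5 and 87.8 CPM in overload, overlapping and without a call. Srebf2 was at 165 ± 4.56 and 176 ± 5.26 CPM (log2 fold change 0.09 ± 0.05, adjusted p = 0.187).

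**Figure D2:**
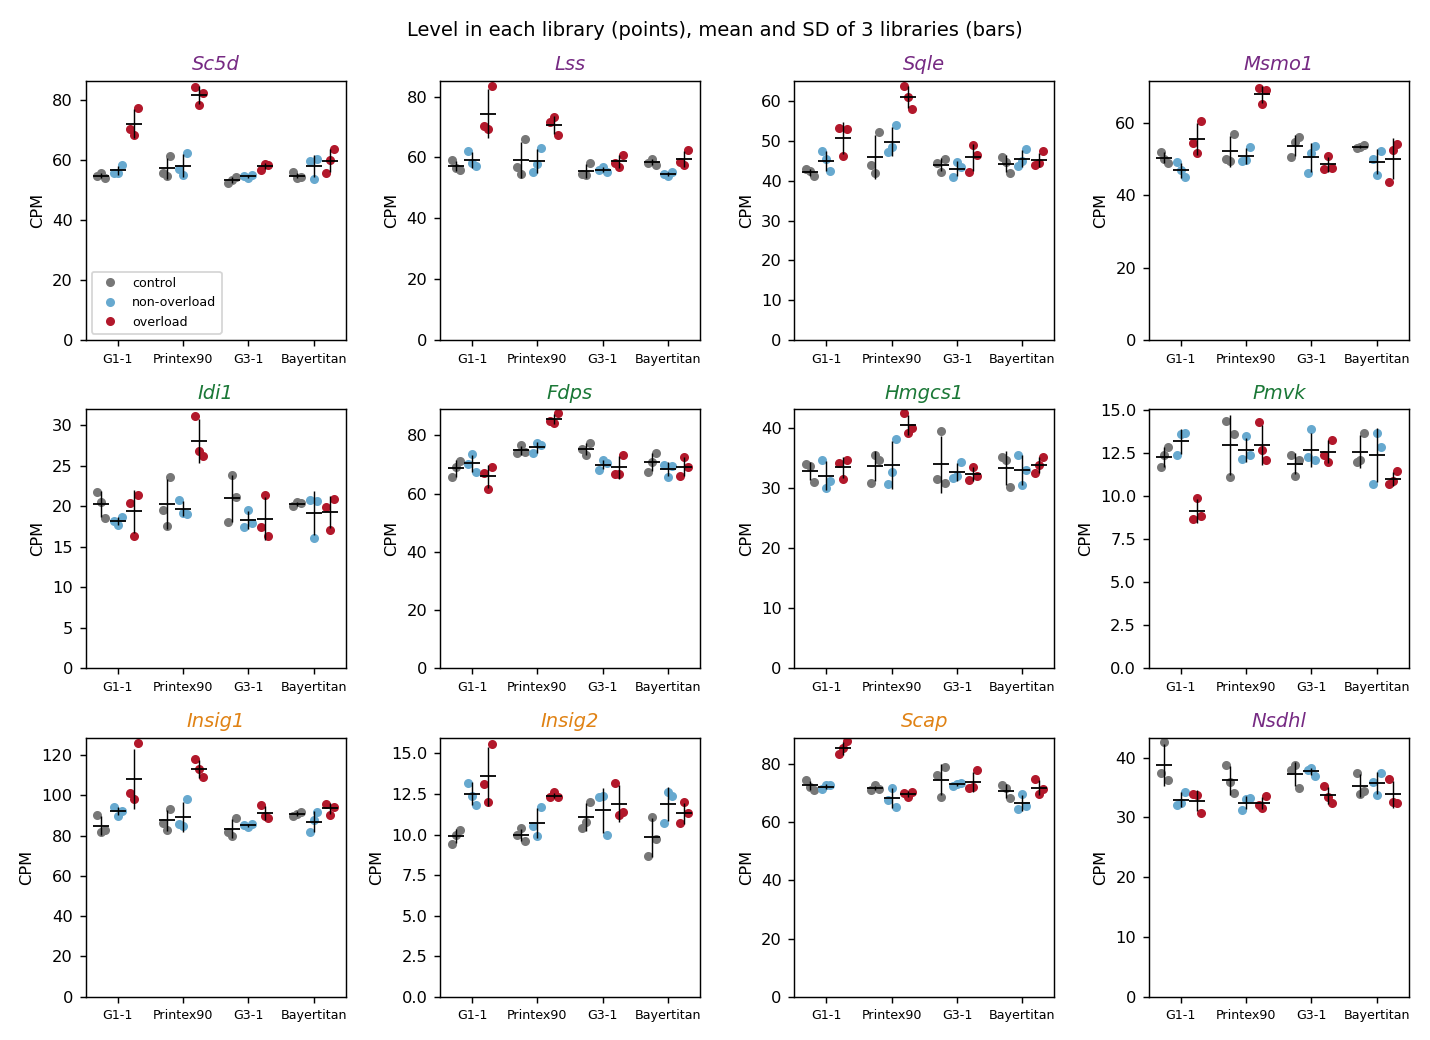
Level of 12 members in every library, in CPM from 0, by particle (horizontal axis) and condition (grey control, blue non-overload, red overload); points are libraries, and bars are the mean and SD of 3. For Sc5d, overload libraries stand at 68.6 CPM or more with G1-1 and Printex90 and at 63.7 CPM or less with G3-1 and Bayertitan, and Pmvk is at 9.92 CPM or less in the 3 G1-1 overload libraries.

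Epithelial markers had lower means in overload than in control with G1-1, Printex90 and G3-1. Their mean log2 CPM was 7.34 ± 0.269 (SD, n = 3) in G1-1 controls and 7.02 ± 0.272 in G1-1 overload, and 7.03 ± 0.594 and 6.71 ± 0.0751 with Printex90. With G3-1 it was 7.37 ± 0.283 and 7.17 ± 0.3, and with Bayertitan 7.01 ± 0.042 and 7.01 ± 0.131. In summed CPM the control and overload ranges overlapped, at 1650 to 2240 and 1300 to 1900 for G1-1 and at 1160 to 2180 and 1220 to 1470 for Printex90. With the epithelial level as a covariate in the edgeR fit, 7 members were called higher and 3 lower in G1-1 overload, the added call being Stard4 (log2 fold change -0.25, adjusted p = 0.00014). For Printex90 overload 9 were called higher and 1 lower, and Hmgcs1 and Insig2 lost their calls. Sc5d then had log2 fold changes of 0.36 with G1-1 and 0.48 with Printex90, Sqle 0.18 and 0.33, Lss 0.32 and 0.20, and Insig1 0.29 and 0.31. Without the 8 libraries with Col3a1 above 10 CPM, 9 were called higher and 3 lower with G1-1, and 10 higher and 1 lower with Printex90. With the fibroblast level as a covariate, 8 were called higher and 2 lower with G1-1, and 10 higher and 1 lower with Printex90, where Insig2 lost its call. The shares of all genes called in these fits are not given here, so the counts alone do not show a change particular to the members. Beyond these fits, the part of either marker list in the members' differences was not tested.

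The gap between late and early steps was widest in G1-1 overload, while early and late steps were both higher on average in Printex90 overload. As a description, the mean log2 CPM of the 11 late enzymes less that of the 8 early enzymes was taken in each library. It was 0.433 to 0.477 in G1-1 controls and 0.633 to 0.659 in G1-1 overload, above each of the other 33 libraries, whose highest value was 0.555. In Printex90 cultures it was 0.41 to 0.471 in controls and 0.511 to 0.545 in overload. The early mean changed by -0.05 with G1-1 (overload libraries 4.30 to 4.46, overlapping controls at 4.42 to 4.45) and by 0.16 with Printex90 (4.62 to 4.68 against 4.43 to 4.54). With G1-1 the early enzyme Pmvk had a log2 fold change of -0.43, and the other early enzymes lay between -0.07 and 0.11. The gap without Pmvk was not taken. The late mean changed by 0.14 with G1-1 and 0.24 with Printex90, and that of the regulators by 0.20 and 0.12, with no overlap in these 4 cases. G1-1 overload replicate 2, a library with Col3a1 above 10 CPM, was the lowest of its group in the early, late and regulator means. Without the libraries with Col3a1 above 10 CPM, the medians for G1-1 were 0.04 for early enzymes, 0.19 for late enzymes and 0.25 for regulators. A gap above that of the controls was not limited to G1-1 and Printex90 or to overload. Late less early was also higher in Bayertitan overload, 0.49 to 0.555 against 0.402 to 0.446 in its controls, where the early mean was lower by 0.08 and the late mean differed by 0.01. It was 0.472 to 0.549 in Bayertitan non-overload, and 0.458 to 0.476 in G3-1 non-overload against 0.386 to 0.439 in G3-1 controls, with no overlap in either. G3-1 overload, at 0.414 to 0.541, overlapped its controls.

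**Figure D3:**
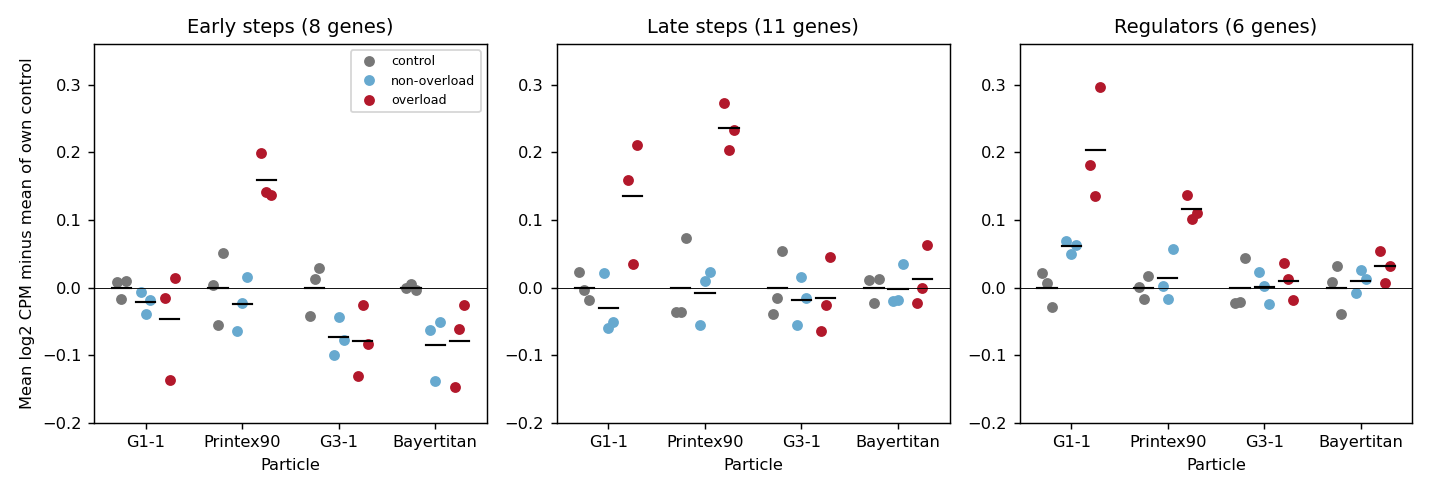
Mean log2 CPM over the 8 early enzymes, 11 late enzymes and 6 regulators in each library, less the mean of the particle's own 3 controls (vertical axis), by particle and condition; points are libraries and short lines are group means. Early enzymes stand above 0.1 in the 3 Printex90 overload libraries alone, while late enzymes and regulators are above their controls in overload of both Printex90 and G1-1.

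G3-1 and Bayertitan overload gave no call among the members. In edgeR 0 of 27 were called higher in G3-1 overload, beside 0.52% of all genes, and 0 lower, beside 0.0479%; at an unadjusted p under 0.05 there were 1 higher and 3 lower, and DESeq2 called 0. In Bayertitan overload 0 were called higher, beside 0.212%, and 0 lower, beside 0.116%; unadjusted, 2 were higher and 3 lower, and DESeq2 called 0. For the unadjusted and DESeq2 counts, shares of all genes are not given here. Sc5d had small positive values with both particles. It stood at 52.3, 53.4 and 54.5 CPM in G3-1 controls and at 56.9, 58.7 and 58.4 CPM in G3-1 overload, apart but close (log2 fold change 0.12 ± 0.05, edgeR adjusted p = 0.36). With Bayertitan it stood at 56.0, 54.1 and 54.5 CPM in controls and at 55.9, 60.1 and 63.7 CPM in overload, overlapping (0.13 ± 0.05, adjusted p = 0.526). The 95% interval for Sqle reached from -0.09 to 0.20 with G3-1 and from -0.11 to 0.18 with Bayertitan, and that for Msmo1 from -0.29 to 0.00 and from -0.24 to 0.06. Ggps1 stood at 62.4, 55.9 and 54.4 CPM in Bayertitan controls and at 50.8, 47.9 and 53.3 CPM in overload, a log2 fold change of -0.19 ± 0.06 (adjusted p = 0.314).

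Non-overload cultures, the lower exposure, also gave no call. In edgeR 0 of 27 members were called for G1-1 (0.459% of all genes), Printex90 (0.205%), G3-1 (0%) and Bayertitan (0.335%). At an unadjusted p under 0.05 there were 2, 1, 1 and 4 members in that order. DESeq2 called 1 with G1-1, 1 with Bayertitan and 0 with the others. Neither set of counts has the share of all genes beside it, so they are not shown to exceed that share. Insig2 was at 13.2, 12.4 and 11.8 CPM in G1-1 non-overload, above its 3 controls, with a log2 fold change of 0.33 ± 0.10 (adjusted p = 0.144). Nsdhl was at 32.1, 32.5 and 34.3 CPM in the same cultures, below its 3 controls, with -0.24 ± 0.06 (adjusted p = 0.0979). Insig2 was the 1 member called in the mean of the 4 non-overload responses, at 0.19 ± 0.05 (adjusted p = 0.0235), where 4.94% of all genes were called. No member was called there without G3-1 non-overload replicate 1, and 2 were without G3-1 control replicate 2 or G3-1 non-overload replicate 3. What share of all genes was called in those fits is not given here.

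Set against non-overload, G1-1 overload called 8 members (22.7% of all genes) and Printex90 overload 10 (3.51%). With G1-1 these were 7 higher, Acat2, Lss, Msmo1, Sc5d, Dhcr7, Insig1 and Scap, and Pmvk lower, from 12.4, 13.6 and 13.7 CPM to 8.68, 9.92 and 8.85 CPM (log2 fold change -0.53 ± 0.09, edgeR adjusted p = 9.37e-05). With Printex90 they were 9 higher, Acat2, Idi1, Fdps, Sqle, Lss, Cyp51, Msmo1, Sc5d and Insig1, and Mbtps1 lower. Acat2, the thiolase that opens the pathway, had log2 fold changes of 0.22 ± 0.07 (adjusted p = 0.0334) and 0.28 ± 0.07 (adjusted p = 0.0288) in them. Leaving out G1-1 overload replicate 3 left 5 calls with G1-1. With Printex90 there were 4 without non-overload replicate 2 or overload replicate 1, and 6 without non-overload replicate 1 or overload replicate 2. For G3-1 (0.0274% of all genes) and Bayertitan (0%) edgeR called 0 members, with 1 each at an unadjusted p under 0.05 and 0 by DESeq2. These comparisons share the overload libraries with those against control. Shares of all genes were not set beside the unadjusted and DESeq2 counts, nor beside the counts with a library left out.

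Over all 4 particles, the mean overload response called 10 members, or 37% of them, near the 31.9% of all genes called. The 6 higher were Sc5d at 0.29 ± 0.03 (log2, SE), Insig2 at 0.27 ± 0.05, Insig1 at 0.22 ± 0.03, Sqle and Lss at 0.19 with errors of 0.04 and 0.03, and Dhcr7 at 0.17 ± 0.04. The 4 lower were Nsdhl at -0.15 ± 0.03, Pmvk at -0.13 ± 0.05, Mbtps1 at -0.10 ± 0.02 and Ggps1 at -0.09 ± 0.03. Pmvk and Ggps1 were called in 15 and 14 of the 24 fits with a library left out, and the other 8 in all 24. Nsdhl had a negative value with each particle: its overload libraries were at 32.1, 31.6 and 33.6 CPM with Printex90, at 35.3, 33.4 and 32.4 CPM with G3-1 and at 36.5, 32.6 and 32.5 CPM with Bayertitan, where its control means were 36.2, 37.3 and 35.3 CPM. The carriers gave no call. Stard4, a cholesterol transfer protein, ran from 34.1 to 52.0 CPM with a median of 43.5 over the 36 libraries, and Tmem97, a sterol-regulated protein of the endoplasmic reticulum, from 15.9 to 21.9 CPM with a median of 18.7.

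The overload responses themselves differed between particles for some members, tested as a difference of differences in edgeR. G1-1 and Printex90 differed in 4 members, or 14.8% beside 11.1% of all genes. Idi1 (-0.54 ± 0.17, adjusted p = 0.0348), Pmvk (-0.43 ± 0.13, adjusted p = 0.0309) and Fdps (-0.25 ± 0.07, adjusted p = 0.012) responded lower with G1-1, all of them early enzymes. Scap responded higher with G1-1, by 0.28 ± 0.06 (adjusted p = 0.00345). Of these, Scap was called in all 12 fits with a library left out, Fdps in 11 (not without G1-1 overload replicate 2), Pmvk in 7 and Idi1 in 6. Idi1 also lost its call without the libraries with Col3a1 above 10 CPM, where the difference was -0.34, and Pmvk when only the libraries of the particles compared were fitted. The count was 2 without G1-1 overload replicate 2, Printex90 control replicate 2 or Printex90 overload replicate 1, with the share of all genes not set beside it. The late enzymes gave no call in that comparison. For Sc5d the difference was -0.12, with a 95% interval from -0.27 to 0.04. For Insig1 it was -0.02, from -0.22 to 0.18, and for Lss 0.12, from -0.06 to 0.30.

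**Figure D4:**
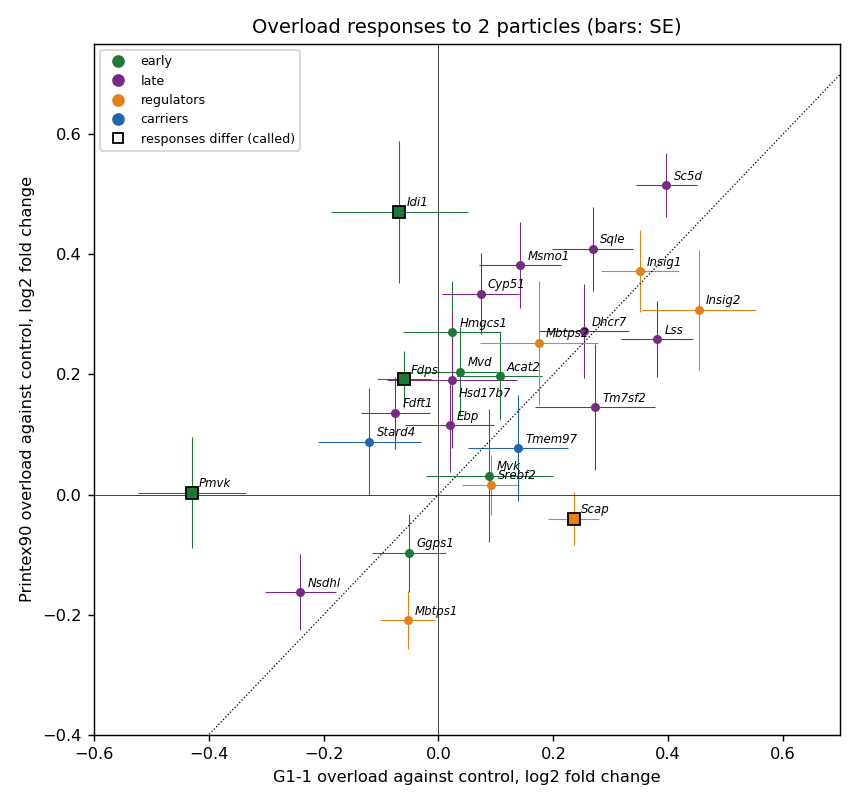
Log2 fold change of each of the 27 members in G1-1 overload (horizontal) and Printex90 overload (vertical), each against its own control, with SE bars and the line of equality dotted; colours are the role groups. Black-edged squares are the 4 members whose responses differed by an edgeR adjusted p under 0.05: Idi1, Fdps and Pmvk above the line and Scap below it.

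Set against the titanium dioxides G3-1 and Bayertitan, the late enzyme Sc5d was called in all 4 differences of G1-1 or Printex90 from them, Lss and Scap in both with G1-1 and Msmo1 in both with Printex90. The early enzymes Pmvk and Fdps, the late enzyme Cyp51 and the regulators Insig1 and Srebf2 were called in 1 of the 4 each. G1-1 less G3-1 gave 4 calls (9.28% of all genes were called): Lss at 0.30 ± 0.09, Sc5d at 0.28 ± 0.08, Scap at 0.25 ± 0.06 and Pmvk at -0.51 ± 0.13. G1-1 less Bayertitan gave 5 (12.3% of all genes): Lss at 0.36 ± 0.09, Insig1 at 0.31 ± 0.10, Sc5d at 0.27 ± 0.08, and Srebf2 and Scap at 0.21 with errors of 0.07 and 0.06. Printex90 less G3-1 gave 3 (0.644%): Msmo1 at 0.53 ± 0.10, Sc5d at 0.40 ± 0.08 and Fdps at 0.32 ± 0.07. Printex90 less Bayertitan gave 3 (1.18%): Msmo1 at 0.47 ± 0.10, Cyp51 at 0.41 ± 0.10 and Sc5d at 0.39 ± 0.08. Msmo1 stood at 50.5, 54.7 and 56.1 CPM in G3-1 controls and at 47.3, 50.9 and 47.6 CPM in its overload, and at 53.1, 53.3 and 54.0 CPM in Bayertitan controls and 43.8, 52.6 and 54.2 CPM in its overload. In neither did it pass the test, and the groups overlapped in both. Without the libraries with Col3a1 above 10 CPM, which leaves 1 control and 1 overload library of G3-1, the calls of Printex90 less G3-1 were 0 and those of G1-1 less G3-1 were 2; the lone libraries are then assumed to vary like the other groups. G3-1 less Bayertitan gave 0 calls (0% of all genes) in edgeR, 1 member at an unadjusted p under 0.05 and 0 by DESeq2. G1-1 less G3-1 gave 1 call without G1-1 control replicate 3, 2 without G1-1 overload replicate 3 and 7 without G1-1 overload replicate 2. G1-1 less Bayertitan gave 1 without G1-1 overload replicate 3, 2 without control replicate 2 or 3 of G1-1 or overload replicate 2 or 3 of Bayertitan, and 3 without control or overload replicate 1 of Bayertitan. Printex90 less Bayertitan gave 1 without Printex90 control replicate 2 or Bayertitan overload replicate 1. It gave 7 without Printex90 control replicate 3, which left 6 in Printex90 less G3-1. Shares of all genes were not set beside these counts with a library left out, nor beside the unadjusted and DESeq2 counts. A moved count is therefore not shown to be particular to the members.

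Around the pathway, several genes that export, store or release sterol rose in G1-1 and Printex90 overload. On a list of 11 genes, which also held a ubiquitin ligase and sterol receptors, 5 rose and 1 fell with each particle. That is 45.5% higher beside 13.7% of all genes with G1-1 and 7.45% with Printex90. It is 9.09% lower beside 14.4% and 7.31%. The median log2 fold change of the 11 was 0.11 and 0.22. Npc1, which lets cholesterol out of lysosomes, went from 166, 153 and 167 CPM to 228, 216 and 247 CPM with G1-1 (log2 fold change 0.51 ± 0.07, edgeR adjusted p = 9.08e-07) and by 0.26 ± 0.07 with Printex90. Soat1, which esterifies cholesterol for storage, rose by 0.35 ± 0.06 and 0.23 ± 0.06, and the cholesterol exporter Abca1 by 0.30 ± 0.08 and 0.36 ± 0.08. Mylip, a ubiquitin ligase induced by the sterol receptor LXR, had log2 fold changes of -0.54 ± 0.10 and -0.37 ± 0.10, from 16.8, 16.3 and 15.1 CPM to 11.3, 10.1 and 11.8 CPM with G1-1. Of 13 genes of sterol sensing, protein degradation and transcription 2 rose and 2 fell with G1-1. That is 15.4% each way, near the 13.7% and 14.4% of all genes. With Printex90 2 rose, or 15.4% beside 7.45%, and the medians of the list were 0.02 and 0.07. Srebf1, the gene of the related factor SREBP1, was the furthest: 82.7, 77.0 and 78.7 CPM in G1-1 controls and 122, 115 and 145 CPM in overload (0.68 ± 0.07, adjusted p = 1.4e-08), and 0.39 ± 0.07 with Printex90 (adjusted p = 0.000341). Nfyb, a subunit of NF-Y, fell with G1-1 by a log2 fold change of -0.35 ± 0.08 (adjusted p = 0.00209). Ubxn8 was called with G1-1 at -0.28 ± 0.10, and Erlin2 with Printex90 at 0.21 ± 0.05. Of 10 genes of the isoprenoid branch, 3 rose and 1 fell with G1-1, or 30% and 10% beside 13.7% and 14.4% of all genes, and 1 rose with Printex90, or 10% beside 7.45%, with medians of 0.07 and 0.03. Nus1, needed for dolichol synthesis, was called in both, at 0.17 ± 0.05 and 0.19 ± 0.05, and the farnesyltransferase subunit Fntb at 0.29 ± 0.05 with G1-1 and 0.23 ± 0.05 with G3-1 (adjusted p = 0.0468). Rabggtb and Pggt1b, subunits of enzymes that prenylate proteins, were called with G1-1 at 0.16 ± 0.06 and -0.19 ± 0.07. Fntb was the 1 gene of these lists called in G3-1 overload, and none was called in Bayertitan overload. Of 7 other targets of SREBP2 2 rose with each of G1-1 and Printex90, or 28.6% beside 13.7% and 7.45% of all genes, and 0 fell, with medians of 0.04 and 0.09.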

How the data were processed

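Gene expression was read from 1 table of expected counts that the authors deposited, with a column for each of the 36 libraries. Per the labels' protocols, RNA was isolated with TriPure and 150 ng were made into libraries with a kit that removes ribosomal RNA. The submitters' processing notes name Salmon, FastQC, MultiQC and, as genome build, Rnor_6.0. The sources used here give neither their settings nor whether counting used strand, so overlapping genes cannot be told apart. Decimals were present in 30.5% of the deposited expected counts, which were rounded to whole numbers before testing.

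The test was edgeR's quasi-likelihood test (version 4.0.16, R 4.3.3) over all 36 libraries with 1 coefficient for each group, 24 residual degrees of freedom, TMM scaling and the filterByExpr filter (at least 10 counts, 15 in total). P-values were adjusted by Benjamini-Hochberg over all 14606 genes tested, and a gene was called at an adjusted p under 0.05. Log2 fold changes carry standard errors, taken as the size of the change divided by the root of the test's F statistic. They thus rest on a spread estimated over all 36 libraries, not on the libraries compared alone. CPM are scaled by TMM. DESeq2 1.42.0, other scalings, marker covariates, a replicate block and leaving out each library were alternatives. As a check of the code, the fit was run on counts simulated from the same model for G1-1 overload against control. Such counts meet the model's assumptions by design, so they cannot test them. The members and lists were chosen with earlier results of these data known. Some genes of the pathway are not reported here by name. Values by library or group are given for the members with the smallest p in the mean overload response of each role (4 early, 5 late, 3 regulators, both carriers), for 3 with the smallest p among the differences, and for others the text compares. Genes of the 4 surrounding lists could be named where 5 or fewer were called in a comparison, otherwise the 4 with the smallest p in the mean overload response. The labels do not say that replicate numbers pair libraries. In the data, same-numbered libraries correlated over 0.1 in all 3 pairs in Printex90 control and non-overload cultures alone. More weakly, at 0.034 to 0.11, each control library also correlated best with its own number in 3 other comparisons. These were G1-1 control with overload, and Bayertitan control with non-overload and with overload. No 2 replicates agreed within sampling noise (chi-square per degree of freedom 3.82 to 37.2 over 36 pairs).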

Additional observations from a re-analysis of the deposited data

Results flagged for a closer look

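The results below stood out because a member's overload response, overload less control on the log2 scale, differed between a pair of particles in a test of that difference (edgeR, adjusted p under 0.05 over all genes tested). All 6 pairs of particles were compared, and none of the differences was checked outside these libraries. Of all genes tested, 11.1% were called in G1-1 less Printex90, 9.28% in G1-1 less G3-1 and 12.3% in G1-1 less Bayertitan. The members called there were 4, 4 and 5 of 27 in that order, not far above these shares. In Printex90 less G3-1 and less Bayertitan, 0.644% and 1.18% of all genes were called. G1-1 less Printex90 was -0.54 for Idi1, -0.43 for Pmvk, -0.25 for Fdps and 0.28 for Scap. G1-1 less G3-1 was -0.51 for Pmvk, 0.30 for Lss, 0.28 for Sc5d and 0.25 for Scap. G1-1 less Bayertitan was 0.36 for Lss, 0.27 for Sc5d, 0.31 for Insig1, 0.21 for Srebf2 and 0.21 for Scap. Printex90 less G3-1 was 0.53 for Msmo1, 0.40 for Sc5d and 0.32 for Fdps. Printex90 less Bayertitan was 0.47 for Msmo1, 0.41 for Cyp51 and 0.39 for Sc5d. With a library left out, the call of Srebf2 was kept in 3 of 12 fits and that of Cyp51 in 4. It was kept in 6 of 12 for Idi1 in G1-1 less Printex90, for Lss in G1-1 less G3-1, and for Insig1 and Scap in G1-1 less Bayertitan, in 7 for Pmvk in G1-1 less Printex90, and in 10 to 12 for the other 12 differences. Srebf2 also lost its call in 4 of 9 other settings: raw library sizes, no filter on low counts, the epithelial covariate, and only the particles compared. Without the libraries with Col3a1 above 10 CPM the calls of Idi1, of Lss and Sc5d in G1-1 less G3-1, of all 3 members in Printex90 less G3-1 and of Msmo1 in Printex90 less Bayertitan were lost. Insig1 and Pmvk (G1-1 less Printex90) lost theirs with only the particles compared, and Scap in G1-1 less Bayertitan with raw library sizes.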

How the results depend on the processing

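No value changed sign among called members. Over the settings that leave out no single replicate, 2496 single-member values counted as unchanged. For a called member that meant a kept direction and call. For the others it meant no call and a move within an SE, even where the sign changed. Ebp in G1-1 overload, for example, went from 0.02 to -0.01 with the epithelial covariate. Of the rest, 27 lost a call, 54 gained one and 69 moved by over an SE with no call. Counts moved by over 1.5 times as follows, and the cause was not tested. The shares of all genes called are not set beside these counts, nor beside those below with a library left out. A moved count is therefore not shown to be particular to the members. With raw library sizes, where the median of all genes was -0.077 with G1-1 and -0.0826 with Printex90, members lower in Printex90 overload were 2, non-overload calls were 1 for Bayertitan and 4 for the mean response, and G1-1 minus Bayertitan gave 3. Medians of early, late and regulator members were then -0.0727, 0.0822 and 0.1456 with G1-1, 0.1264, 0.1925 and 0.0667 with Printex90, and early and regulator medians of the mean overload response were -0.0434 and 0.0439. With the replicate number as a block, the mean non-overload response gave 2 calls and Printex90 minus G3-1 5. Same-numbered libraries correlated by -0.247 to 0.542, over 0.1 in 9 of 36 pairs, and 19 of 36 correlated best with their own number. In Printex90 control and non-overload all 3 pairs were over 0.1 (0.21, 0.43 and 0.433), and with the block that comparison again gave 0 calls; in no other pair of groups were all 3 over 0.1. With the fibroblast covariate calls were 1 in G1-1 non-overload, 2 in the mean non-overload response, 7 in G1-1 minus G3-1 and 6 in Printex90 minus G3-1. With the epithelial covariate they were 1 in Bayertitan non-overload, 2, 7 and 7, and the late medians were 0.092 with G1-1 and 0.2025 with Printex90. Without libraries with Col3a1 above 10 CPM there were 6 calls in Printex90 overload against non-overload, 2 in the mean non-overload response, 2 in G1-1 minus G3-1 and 0 in Printex90 minus G3-1, and the G1-1 medians were 0.0408, 0.1932 and 0.2546. DESeq2 gave 1, 1 and 2 calls in G1-1, Bayertitan and mean non-overload, 6 in Printex90 minus G3-1 and 5 in Printex90 minus Bayertitan. Fitting only the particles compared gave 3 in Printex90 overload against non-overload and 3 in G1-1 minus Bayertitan. The sterol element's shorter motif matched 21.7% of member promoters and 14.7% of all, and the longer motif on the same strand 0.532% of all.

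Leaving out 1 library gave 6 to 8 members higher and 1 to 2 lower in G1-1 overload, 8 to 10 and 1 to 2 in Printex90 overload, 5 to 9 and 4 to 10 against non-overload, 8 to 13 and 0 to 2 in the mean overload and non-overload responses, and 2 to 6, 1 to 7, 1 to 5, 3 to 6 and 1 to 7 in G1-1 minus Printex90, G3-1 and Bayertitan and Printex90 minus G3-1 and Bayertitan. Early, late and regulator medians ranged from -0.0323 to 0.0477, 0.0837 to 0.2001 and 0.1644 to 0.2617 with G1-1, 0.1649 to 0.2111, 0.2242 to 0.2886 and 0.102 to 0.1711 with Printex90, and -0.0082 to 0.0285, 0.0694 to 0.1039 and 0.0811 to 0.1081 in the mean overload response. Among overload responses of single particles against control, the smallest called change was 0.19 (Fdps) and the largest not called 0.27 (Tm7sf2). The change that could be called thus differed between members. The mean overload response of the particles called smaller changes, down to -0.09 (Ggps1).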
